A study of Mus musculus with 2 samples.

Results

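The 8 genes described here encode the alpha crystallins (Cryaa and Cryab), the acidic beta crystallins (Cryba1, Cryba2 and Cryba4) and the basic beta crystallins (Crybb1, Crybb2 and Crybb3) of the mouse. They were taken by symbol from a deposited table of 47644 genes, in which each of the 8 symbols occurs in 1 row. The table compares 1 library from eyeballs of C57BL/6 mice with oxygen-induced retinopathy (OIR) with 1 library from eyeballs of control C57BL/6 mice. In the OIR model, pups aged 7 days were kept in high oxygen for 5 days and then in ordinary air, and their eyes were taken on day 17. The labels do not give the control's collection day, the number of eyes or animals behind either library, or their sex. The submitters state that they were looking for mechanisms of lasting visual dysfunction in this model.

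Crystallins are the main soluble proteins of the lens and give it its refractive power. Fibre cells of the lens make them in very large amounts, lose their organelles as they mature, and keep the same protein for life. The alpha crystallins are small heat shock proteins that bind unfolding proteins and keep them from clumping. The beta crystallins belong with the gamma crystallins to a separate structural superfamily and pack as dimers and larger complexes. Mutations in human genes of these families cause cataract. Cryab is also made outside the lens, for example in heart and skeletal muscle and in glia, and several beta crystallins have been found in the retina.

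The promoters of 3 members are printed here. They are those of the most abundant member (Cryaa), of the member with the lowest ratio of OIR to control (Cryba2) and of the member with the highest (Crybb1). Whether promoter sequence bears on the difference between the libraries was not tested. Each runs from 250 bases before to 50 bases after the gene start, 5′ to 3′ on the gene's strand, from RefSeq on GRCm38.p6. They are chr17:31677681-31677980 on the plus strand, chr1:74893094-74893393 on the minus strand and chr5:112255570-112255869 on the plus strand. Capitals mark matches to the core of the Maf recognition element (TGCTGA), to paired heat shock units (GAANNTTC) and to a TATA box (TATAAA), each searched on both strands. No matches overlapped.
Cryaa: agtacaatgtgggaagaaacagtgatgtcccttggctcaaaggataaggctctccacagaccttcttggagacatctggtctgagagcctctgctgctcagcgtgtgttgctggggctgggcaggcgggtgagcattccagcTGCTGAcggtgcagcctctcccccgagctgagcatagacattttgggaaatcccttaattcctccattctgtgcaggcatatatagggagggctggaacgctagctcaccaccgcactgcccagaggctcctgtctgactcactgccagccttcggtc
Cryba2: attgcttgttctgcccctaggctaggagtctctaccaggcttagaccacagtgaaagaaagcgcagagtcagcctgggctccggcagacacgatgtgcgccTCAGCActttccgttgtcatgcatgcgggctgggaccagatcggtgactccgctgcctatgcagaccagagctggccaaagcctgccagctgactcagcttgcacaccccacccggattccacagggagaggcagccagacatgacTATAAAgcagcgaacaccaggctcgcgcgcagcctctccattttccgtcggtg
Crybb1: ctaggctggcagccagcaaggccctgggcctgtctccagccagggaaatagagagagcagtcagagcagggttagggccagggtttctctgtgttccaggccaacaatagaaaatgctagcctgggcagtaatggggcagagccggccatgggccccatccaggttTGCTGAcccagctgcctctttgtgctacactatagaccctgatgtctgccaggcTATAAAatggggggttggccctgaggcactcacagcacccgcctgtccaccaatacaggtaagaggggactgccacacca

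Promoter sequences were at hand for 7 of the 8 members, all but Cryab. The Maf core occurred in 6 of these 7 (Cryaa, Cryba1, Cryba2, Cryba4, Crybb1 and Crybb3), and in 19.5% of the 32851 mouse promoters in the same collection. Maf is a lens transcription factor that binds crystallin promoters. Cryba4 held 3 copies of the core, and Crybb2 held none in this window. The TATA box string TATAAA was present in 3 of the 7 and in 13.6% of all promoters. It began at -23 from the gene start in Cryba1, at -3 in Cryba2 and at -30 in Crybb1. Paired heat shock units were present in none of the 7 and in 7.86% of all promoters. The promoter of Cryab, the heat-inducible alpha crystallin, was not searched, so this count does not cover it. A match is a string of letters and not a known binding site.

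All 8 alpha and beta crystallins took a smaller share of the reads in the OIR library than in the control library. Together they held 1990045 reads in OIR eyes and 2161592 in control eyes, out of 20378793 and 15741235 reads assigned to genes. These reads are 9.77% of the OIR library (95% binomial interval 9.75 to 9.78) and 13.732% of the control library (13.715 to 13.749). The ratio of the 2 shares was 0.711 (95% interval 0.710 to 0.713), a share lower by 28.9% in OIR eyes. The intervals here and below are exact (Clopper-Pearson) and cover counting error only. They treat each read as independent. Without molecular identifiers a read is not an independent molecule, so the intervals may be too narrow even for counting error. With 1 library in each group no replicate check or test of any difference was possible, and no p-value was computed. In whole eyeballs, fewer lens cells and less crystallin RNA in each cell cannot be told apart, nor can a smaller share of lens from a larger share of other tissues.

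Among the alpha crystallins, Cryaa (ENSMUSG00000024041, chromosome 17, 31677933 to 31681722 on mm10) is the chaperone subunit found largely in the lens. It had 860283 reads in OIR eyes and 924653 in control eyes, or 35594 and 49529 FPKM (fragments per transcript length and sequencing depth, as the authors computed it). This 1 gene took 4.22% of all reads in OIR eyes and 5.87% in control eyes. Its level was second of all genes in the OIR library, behind the gamma crystallin gene Crygd, and first in the control library. The ratio of its read shares was 0.719 (0.717 to 0.721). Cryab (ENSMUSG00000032060, chromosome 9, 50752758 to 50756633) is the heat-inducible partner subunit. It stood at 4823 FPKM in OIR eyes and 7127 FPKM in control eyes, from 116458 and 132947 reads. Its ratio of 0.677 (0.671 to 0.682) was lower than that of Cryaa. Per length, Cryaa was 7.38 times as abundant as Cryab in OIR eyes and 6.95 times in control eyes.

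The acidic beta crystallins included the member farthest below the control. Cryba2 (chromosome 1, 74889934 to 74893143) encodes beta A2 and was the least abundant of the 8. It had 3254 FPKM in OIR eyes and 5201 FPKM in control eyes, from 54501 and 67296 reads, a ratio of 0.626 (0.619 to 0.633). Cryba1 (chromosome 11, 77718615 to 77725283), whose mRNA gives both the beta A3 and beta A1 proteins through alternative start codons, was the most abundant beta crystallin. It had 14144 FPKM in OIR eyes and 20916 FPKM in control eyes, from 310714 and 354924 reads, and its ratio was 0.676 (0.673 to 0.679). Cryba4 (chromosome 5, 112246493 to 112252518), which encodes beta A4, had 5357 FPKM in OIR eyes and 7641 FPKM in control eyes. Its 83956 and 92495 reads gave a ratio of 0.701 (0.695 to 0.708).

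The basic beta crystallins as a group lay closer to the control. Crybb1 (chromosome 5, 112255815 to 112269585) encodes beta B1, a protein with long terminal extensions. It had 11001 FPKM in OIR eyes and 13851 FPKM in control eyes, from 186977 and 181835 reads, and the ratio of 0.794 (0.789 to 0.799) was the highest of the 8. Crybb2 (chromosome 5, 113058258 to 113070117), the major beta crystallin of the adult lens, had 12263 FPKM in OIR eyes and 17452 FPKM in control eyes. Its reads numbered 176681 and 194228, with a ratio of 0.703 (0.698 to 0.707). Crybb3 (chromosome 5, 113075839 to 113081584), which encodes beta B3, stood at 13759 FPKM in OIR eyes and 18944 FPKM in control eyes. It had 200475 and 213214 reads and a ratio of 0.726 (0.722 to 0.731). Crybb1 was the only member with more raw reads in OIR than in control eyes, and its share was still lower, as the OIR library held more reads in all.

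**Figure D1:**
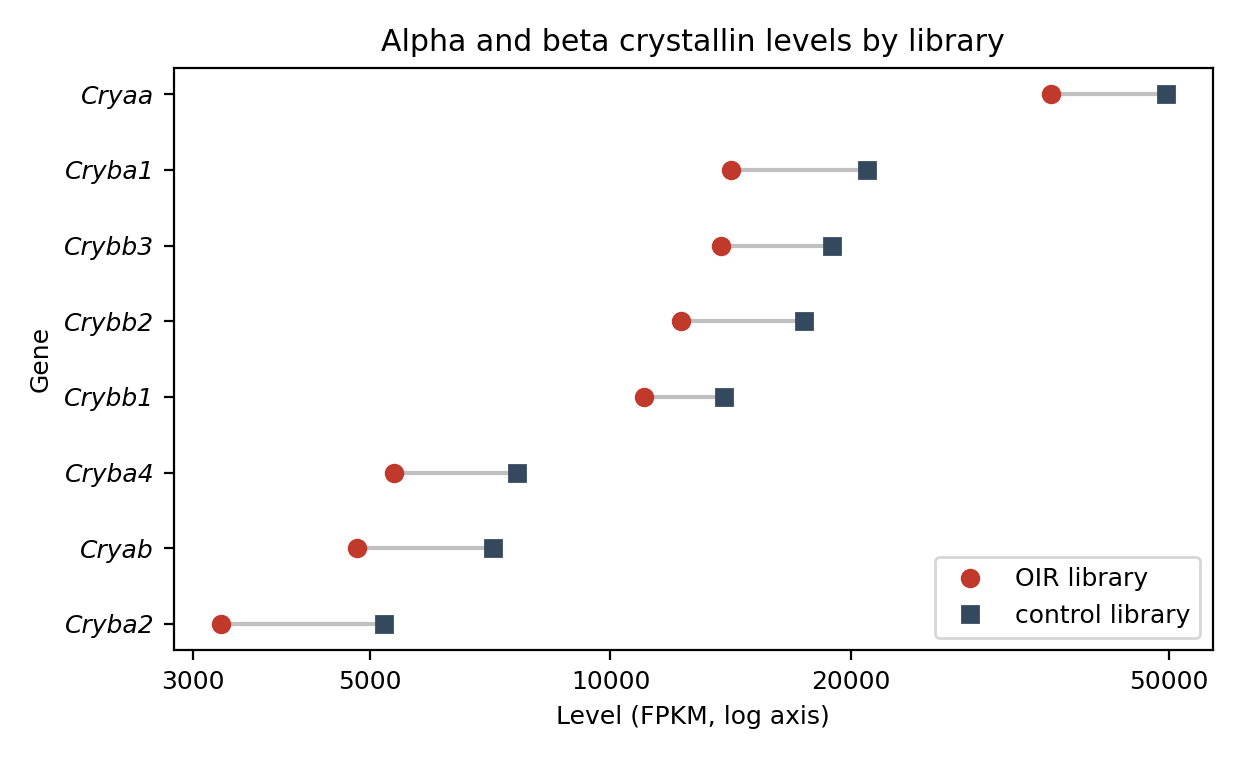
Level of each alpha and beta crystallin gene in FPKM on a log axis, with a circle for the OIR library and a square for the control library, 1 library each. Every OIR point lies left of its control point, and the genes stand in the same order of level in both libraries, from Cryba2 (3254 FPKM in OIR eyes, 5201 in control eyes) to Cryaa (35594 in OIR eyes, 49529 in control eyes).

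Levels within the family spanned 10.9-fold in OIR eyes and 9.52-fold in control eyes, and all 8 members kept the same order of FPKM in both libraries. All 8 were among the 20 genes of highest FPKM in each library. The ratios of OIR to control were close by comparison, since the highest exceeded the lowest by a factor of 1.27. Across the 8 members, which share both libraries, the ratio had a Spearman correlation of -0.14 with transcript length, as implied by count and FPKM. The correlation with the control FPKM was 0.43 (Pearson -0.17 and 0.28, in the same order). These correlations describe 8 genes and were not tested.

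On the log2(FPKM + 1) scale the 8 members differed by -0.68 to -0.33 between OIR and control, with a median of -0.51. The 15883 genes that reached 1 FPKM in at least 1 library, called tested genes although no test was made, had a median of 0.11. A difference below 0 was found for 8 of 8 members and for 35.1% of tested genes. None of the 8 was at least 2-fold lower, a size reached by 0.718% of tested genes. On this scaling 1 member, Cryba2, was at least 1.5-fold lower, as were 2.58% of tested genes. That count turned on the scaling. It was 0 members on TPM (2.39% of tested genes), 6 centred on the median of tested genes (4.44%), and 7, all but Crybb1, with the authors' scaling factors (4.50%). The share of tested genes below 0 was 25.9% on TPM and 51.8% with the authors' factors, while all 8 members stayed below 0. The median of the members was matched or undercut by 593 tested genes, or 3.73%. Among the 43 genes that reached 1000 FPKM in at least 1 library, which include the members themselves, the median was -0.29 and 74.4% lay below 0, so that a difference below 0 was common among the most abundant transcripts. With the members, the gamma crystallins and the lens fibre genes left out, 27 such genes remained, with a median of -0.13 and 16 below 0.

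**Figure D2:**
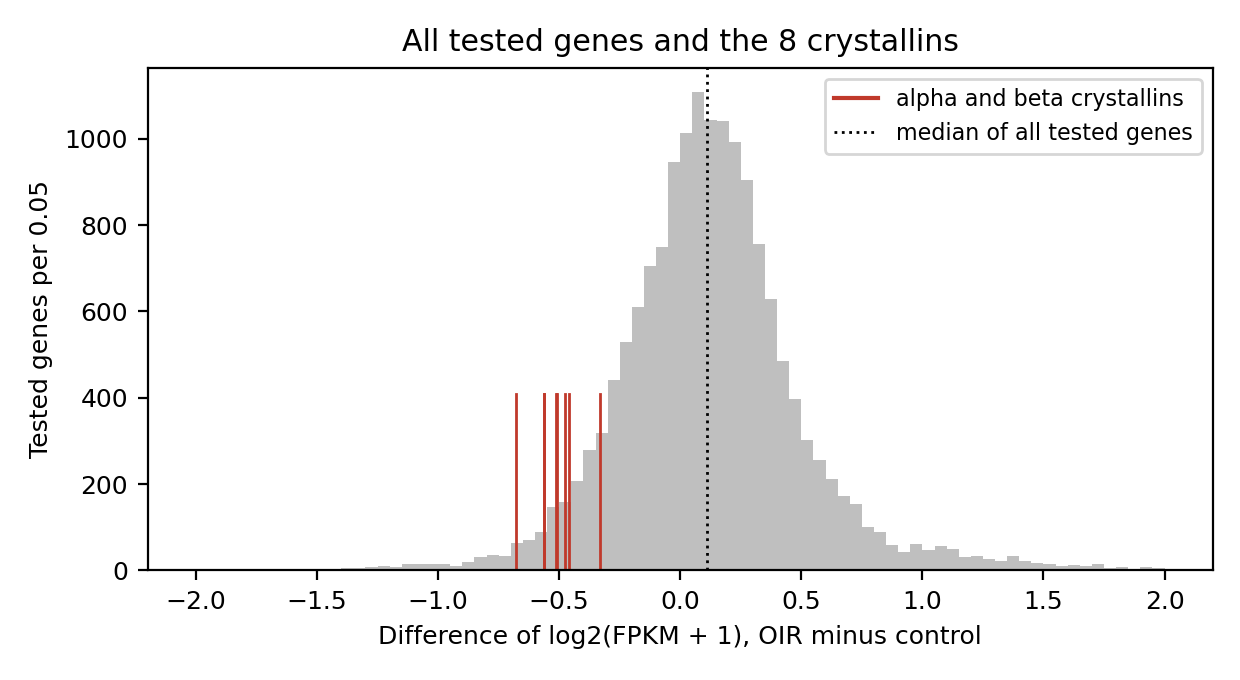
Histogram of tested genes by their difference between OIR and control on the log2(FPKM + 1) scale, with red lines for the 8 crystallins and a dotted line at the median of all tested genes (0.11). The crystallin lines lie between -0.68 and -0.33, in the lower tail, and 63 genes beyond 2 on either side are not drawn.

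The makeup of the family does not depend on what else was sequenced, because each gene is set against the summed reads of the 8. Cryaa supplied 43.2% of these reads in OIR eyes (43.2 to 43.3) and 42.8% in control eyes (42.7 to 42.8). Cryba1 followed with 15.6% in OIR eyes and 16.4% in control eyes, a share lower by 0.81 percentage points and the largest decrease among the 8. Crybb1 had the largest increase, 0.98 points, with 9.40% in OIR eyes (9.36 to 9.44) and 8.41% in control eyes (8.38 to 8.45). Cryba2 made up 2.74% in OIR eyes and 3.11% in control eyes. The alpha crystallins together held 49.1% of family reads in OIR eyes and 48.9% in control eyes.

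**Figure D3:**
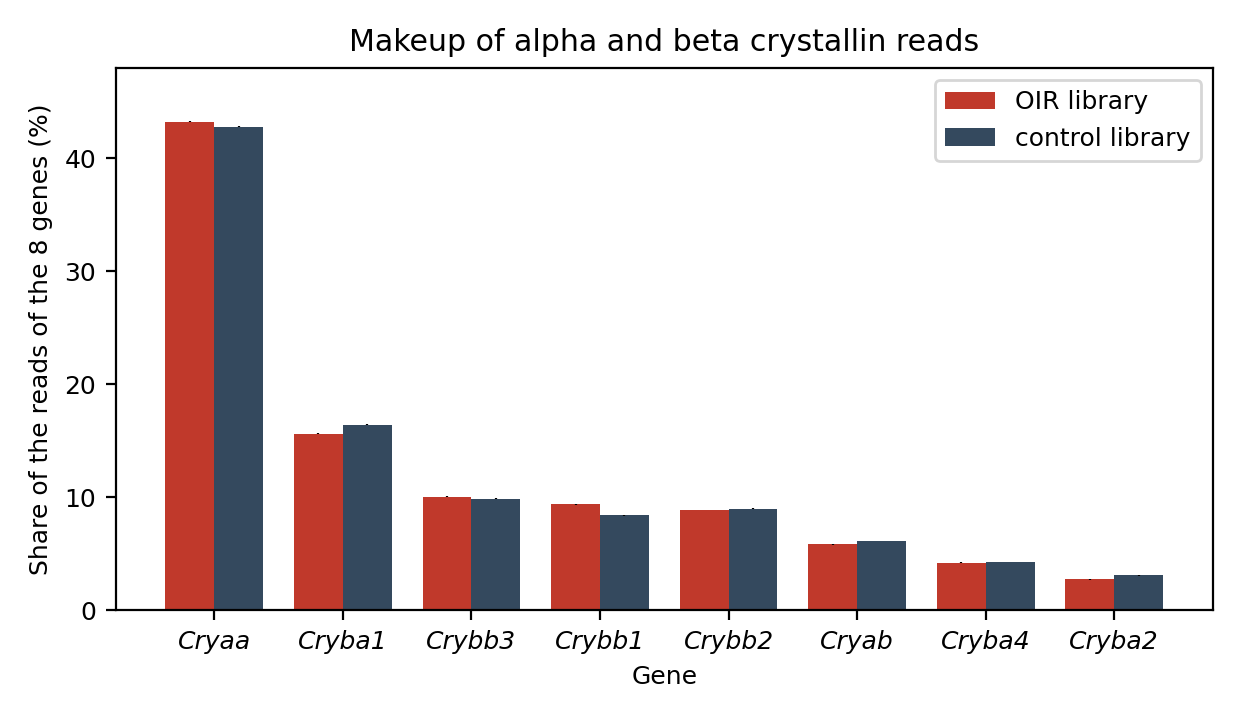
Share of each gene in the summed reads of the 8 alpha and beta crystallins, in percent, with the OIR library left of the control library and 95% counting intervals as thin lines. The bars of each gene are close, with Cryaa at 43.2% in OIR eyes and 42.8% in control eyes and the largest shift at Crybb1, from which 9.40% of reads came in OIR eyes and 8.41% in control eyes.

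Reads of 1 member per read of another gave the same view pair by pair. The change of this quotient between OIR and control had a 95% counting interval (a log-normal approximation) that excluded 1 for 26 of the 28 pairs. The exceptions were Cryab with Cryba1, at a change of 1.00 (0.991 to 1.01), and Cryba4 with Crybb2, at 0.998 (0.987 to 1.01). The widest gap was that of Cryba2 and Crybb1, with 0.291 Cryba2 reads per Crybb1 read in OIR eyes and 0.370 in control eyes, a change of 0.788 (0.777 to 0.798). Summed acidic beta crystallins stood at 0.796 reads per basic beta crystallin read in OIR eyes and 0.873 in control eyes, a change of 0.912 (0.907 to 0.917). Alpha against beta crystallins changed by 1.01 (1.00 to 1.01). At this depth the counting intervals are narrow, and whether eyes of 1 group differ by as much is unknown.

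Of the 8 genes, 4 lie on chromosome 5 in a pair of neighbouring couples. Cryba4 and Crybb1 are transcribed away from each other and lie 3296 bases apart, with ratios of 0.701 and 0.794. Crybb2 and Crybb3 are transcribed the same way, 5721 bases apart, with ratios of 0.703 and 0.726. Cryab is transcribed away from Hspb2, another small heat shock gene, 403 bases off. Hspb2 had 133 reads in OIR eyes and 173 in control eyes, and its ratio of 0.594 (0.470 to 0.749) lay near that of Cryab. Other flanking genes with over 100 reads did not share the low ratio. They were U2af1 and Sik1 beside Cryaa (0.964 and 1.44), Taok1 and Myo18a beside Cryba1 (1.37 and 1.29), Miat beside Cryba4 (1.13), Tpst2 beside Crybb1 (1.01) and 1110032A03Rik beside Cryab (0.897, with an interval of 0.781 to 1.03).

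The members share little exact sequence, which matters for how reads are assigned among related genes. In the principal GENCODE M21 transcripts, the coding sequences of the 28 member pairs were 43.1% to 65.4% identical, with Crybb2 and Crybb3 the closest. The longest exact run that any 2 member transcripts share was 22 bases, between Cryaa (coding bases 224 to 245, chromosome 17) and Cryab (coding bases 236 to 257, chromosome 9). It is printed here as the stretch in which these transcripts are most alike, and the read length is not stated in the sources used here.
Cryaa and Cryab: tggacgtgaagcacttctctcc
Gamma crystallin transcripts, in contrast, shared runs of up to 221 bases (Crygb and Crygc). Their coding sequences were up to 98.1% identical (Cryge and Crygf). How the authors' counting treated reads that map to several genes is not stated in these sources. In the table, Cryba1 overlaps Nufip2, which had 1894 reads in OIR eyes and 1122 in control eyes, and Crybb2 overlaps Gm43247, which had 74 and 106 reads. No other member overlaps a gene.

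The gamma crystallins, made mainly in the lens fibres of young animals, were also lower in OIR but less so. All 8 lay below 0, as did 35.1% of tested genes, with a median difference of -0.29 and ratios from 0.569 to 0.874. Their summed reads gave a ratio of 0.825 (0.823 to 0.827). The alpha and beta crystallins had 1.18 reads per gamma crystallin read in OIR eyes and 1.37 in control eyes, a change of 0.862 (0.860 to 0.865). The ranges of single genes overlapped. Crygn, the least abundant of them, and Crygs, a gamma crystallin of later fibre growth that maps apart from the cluster on chromosome 1, had ratios of 0.569 (0.549 to 0.589) and 0.708 (0.703 to 0.713). The cluster members Cryga to Crygf ranged from 0.746 to 0.874, and the family of 8 changed by 0.847 (0.845 to 0.850) relative to their sum.

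**Figure D4:**
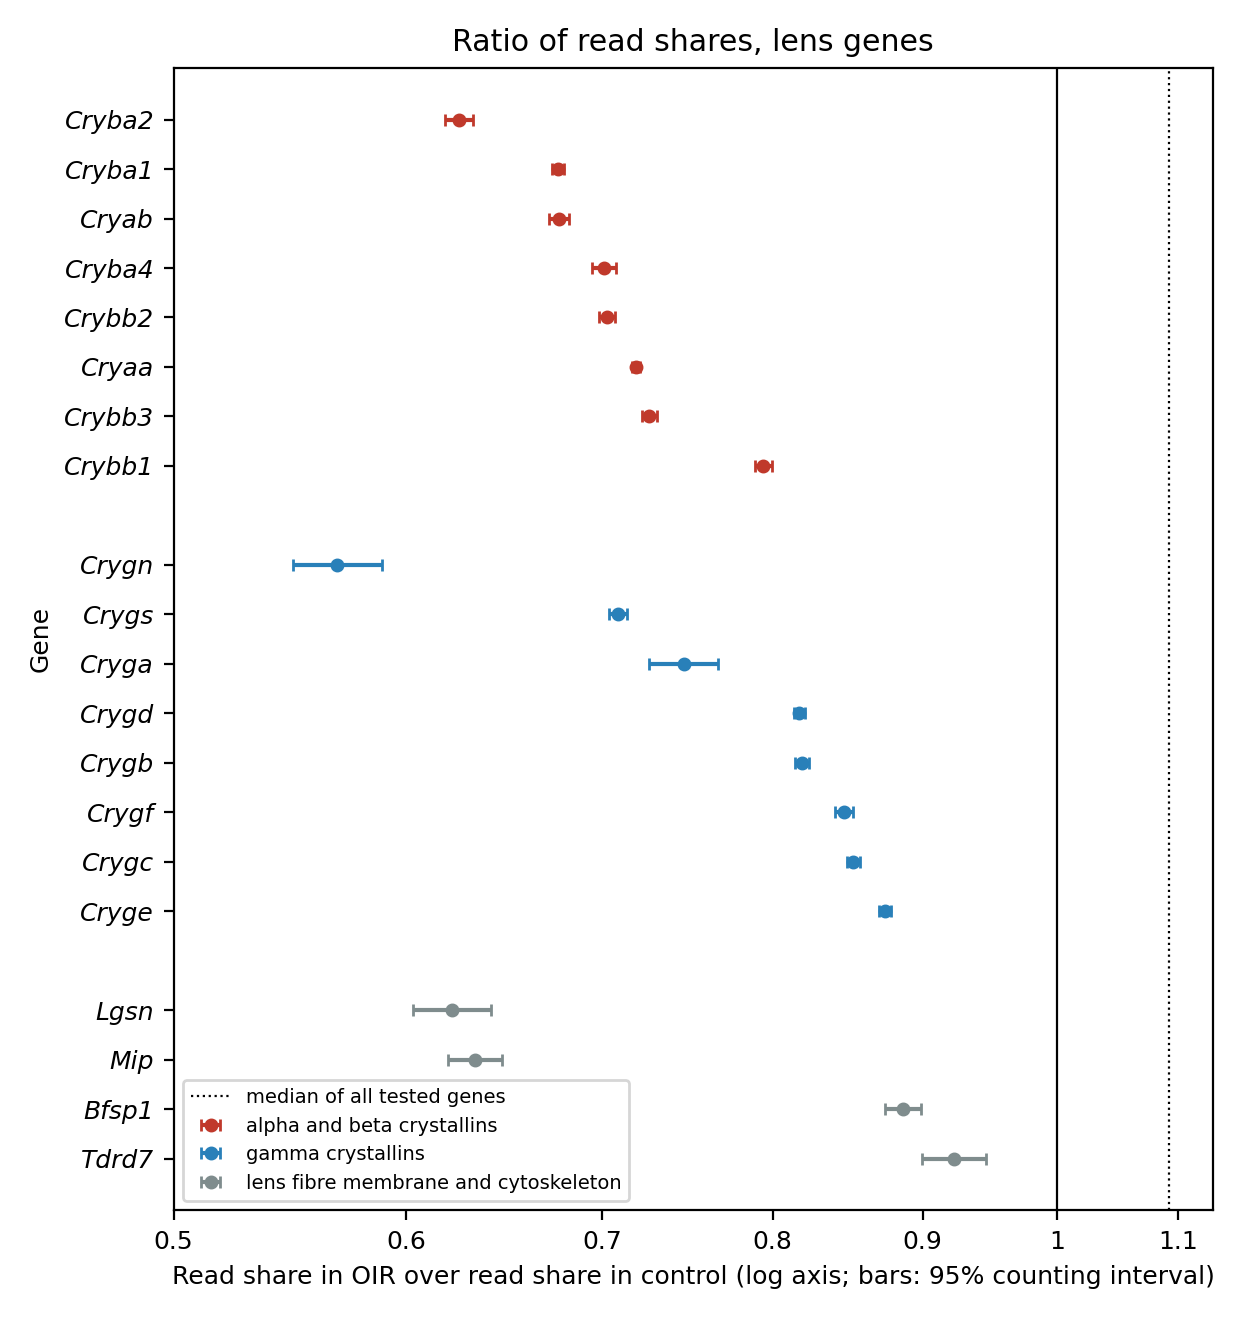
Read share in OIR over read share in control for the alpha and beta crystallins, the gamma crystallins and the lens fibre genes Lgsn, Mip, Bfsp1 and Tdrd7, on a log axis, with 95% counting intervals. All points shown lie left of 1 and of the dotted median of tested genes (1.09), and the alpha and beta crystallins span 0.626 to 0.794.

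Other lens genes shared the direction. Of 14 genes of fibre membrane and cytoskeleton, 12 had an FPKM of at least 1. All 12 lay below 0, as did 35.1% of tested genes, with a median of -0.32. The other 2 were Lim2, a fibre membrane protein gene listed with 0 reads in both libraries, and Lenep, with 6 reads in OIR eyes and 1 in control eyes. Lim2 overlaps the gene Gm42419, which had 48 reads in OIR eyes and 28 in control eyes. Lgsn (lengsin) and Mip, the main intrinsic protein or aquaporin 0 of fibre membranes, had ratios of 0.622 (0.603 to 0.642) and 0.633 (0.620 to 0.647), close to that of Cryba2. The beaded filament gene Bfsp1 and the RNA granule gene Tdrd7, chosen after their values were seen, were nearer to the control, at 0.886 (0.874 to 0.899) and 0.922 (0.899 to 0.946).

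The genes that control crystallin transcription were mixed. Of 13 listed regulators 8 lay below 0 and 5 above, with a median of -0.09. Of tested genes, 35.1% lay below 0 and 64.9% above. None of the regulators was at least 2-fold lower or higher, sizes reached by 0.718% and 3.07% of tested genes. The lens transcription factor genes Pitx3 and Foxe3 were the lowest. Pitx3 had 190 reads in OIR eyes and 268 in control eyes, a ratio of 0.548 (0.452 to 0.662). Foxe3 had 265 reads in OIR eyes and 363 in control eyes, a ratio of 0.564 (0.479 to 0.662). Sox1, which activates gamma crystallin genes, had a ratio of 0.717 (0.636 to 0.807). Among genes chosen after their values were seen, Maf, named above for its binding site, had 0.796 (0.757 to 0.836), Prox1, needed for fibre elongation, 0.845 (0.806 to 0.885), Hsf4, the heat shock factor of the lens, 0.837 (0.763 to 0.918), and Pax6, also active in retina and cornea, 0.950 (0.916 to 0.985).

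Genes of the heat shock response were mixed beside the lower alpha crystallins. Of the 5 other small heat shock genes with an FPKM of at least 1, 4 lay below 0, as did 35.1% of tested genes. Hspb1, by far the most abundant of them, had 554 FPKM in OIR eyes and 460 in control eyes, a ratio of 1.21 (1.17 to 1.24), while Hspb2 and Hspb3 had 0.594 and 0.584 (0.354 to 0.954), the last from 31 and 41 reads. Of 12 genes of the wider response, 7 had a difference above 0, as did 64.9% of tested genes, and 2 reached a level at least 2-fold higher, as did 3.07% of tested genes. These were Hsp90aa1, with 26798 reads in OIR eyes and 947 in control eyes, and Hspa1b, an inducible Hsp70, with a ratio of 2.27 (2.01 to 2.56). Bag3, a co-chaperone that works with small heat shock proteins, had 1.71 (1.44 to 2.04).

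Markers of other eye tissues were higher, lower or near the control beside these values. Their counts stand against all tested genes, of which 64.9% lay above 0, 35.1% lay below 0 and 3.07% were at least 2-fold higher. Corneal epithelium markers lay above 0 for 6 of 6 genes, 5 of them at least 2-fold higher, with summed reads of 0.207% of the library in OIR eyes and 0.0638% in control eyes. Rod markers took 2.71% in OIR eyes and 2.69% in control eyes. Skeletal and heart muscle markers, listed because muscle also makes Cryab, took 0.0183% in OIR eyes and 0.0134% in control eyes, with 9 of 11 above 0. Of these, the heart troponin gene Tnnt2 had 568 reads in OIR eyes and 10 in control eyes, and without it the set took 0.0156% in OIR eyes and 0.0134% in control eyes, 1.16 times as much (1.10 to 1.23). Glial markers (Müller cells and astrocytes, which can also make Cryab) took 0.400% in OIR eyes and 0.489% in control eyes, with 5 of 8 below 0 and a summed ratio of 0.817 (0.809 to 0.825). Glul, the glutamine synthetase of Müller glia, had the most reads of the set, 20082 in OIR eyes and 26746 in control eyes. Its ratio was 0.580 (0.569 to 0.591), and the sum without it was not computed. Rlbp1, a retinoid binding protein of Müller glia, had a ratio of 0.698 (0.672 to 0.724), within the range of the 8 crystallins. Gfap, the filament gene of astrocytes and reactive glia, went the other way, with 5474 reads in OIR eyes and 1291 in control eyes. Its ratio was 3.28 (3.08 to 3.48). The remaining glial markers above 0 were Slc1a3, with a ratio of 1.36 (1.29 to 1.44), and Vim, with 1.14 (1.10 to 1.17). Ribosomal RNA genes took 0.153% in OIR eyes and 0.00791% in control eyes. Retinal pigment epithelium markers took 0.0945% in OIR eyes and 0.0870% in control eyes, with 4 of the 5 at an FPKM of at least 1 above 0. No gene of the corneal, rod, muscle, glial and pigment epithelium sets was listed at 0 reads, and the part of these tissues in the crystallin values was not tested. The summed ratio of the 8 crystallins was 0.660 with all crystallin and lens fibre genes left out of the total and 0.712 with ribosomal RNA genes left out.

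Genes outside the lens lists with ratios most like the members were sought among the 837 others that reached 100 FPKM in at least 1 library, by the distance of the log2 ratio from the median of the members. The nearest 5 were Car2, a carbonic anhydrase (0.703, 0.672 to 0.735), Usmg5, a small subunit of ATP synthase (0.700, 0.643 to 0.762), Smdt1, a regulator of the mitochondrial calcium uniporter (0.700, 0.654 to 0.749), and the cytochrome oxidase subunit genes Cox7a2 (0.704, 0.654 to 0.758) and Cox8a (0.699, 0.670 to 0.731). This likeness rests on 2 libraries and a single difference between them.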

How the data were processed

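RNA of whole eyeballs was sequenced from 1 OIR and 1 control library, prepared per the labels' protocols with the NEBNext Ultra RNA kit. Bowtie2 2.2.3, TopHat2 2.0.12, HTSeq 0.6.1 and mm10 are named in the submitters' processing notes; their settings, the annotation and the use of strand are not stated there. Per the file headers, the deposited table holds read counts, FPKM values, a scaled signal (each count over a factor of its library, from which only these factors were taken), gene length, and the authors' log2 fold changes and p-values, which compare 1 library with 1 library and were not used.

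After 5 broken lines were dropped, 47644 genes remained. Count and FPKM implied the same transcript length in both libraries within 0.1% for all 22320 genes with reads in both, so the ratio of FPKM values equals that of read shares. Symbols missing from the table came from GENCODE M21. Ratios of read shares (OIR over control) carry exact conditional 95% intervals. Differences of log2(FPKM + 1) used genes that reached 1 FPKM in at least 1 library, and 2-fold was judged by size alone. All 8 members passed this filter in both libraries. For the lists, the 3 genes with the largest absolute difference were to be named, and some of them are not reported here; others are marked where named. The members and lists were chosen with earlier results of these data known. The code was run on simulated Poisson counts with known changes. These counts hold no variation between eyes or libraries, so the run cannot speak to such variation. Python 3.11.15, NumPy 2.4.6, pandas 2.3.3, SciPy 1.17.1 and Matplotlib 3.10.9 were used. Depth was 20378793 reads in OIR and 15741235 in the control, with 25307 and 23604 genes detected.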

Additional observations from a re-analysis of the deposited data

How the results depend on the processing

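All 8 members stayed below 0 under every alternative scaling and pseudocount run, a count added after the data were seen, and none became 2-fold lower. The median difference (-0.51) was -0.41 on TPM, -0.62 with crystallin and lens fibre genes left out of the total, -0.65 with the authors' scaling factors and -0.62 centred on the median of tested genes. The summed ratio (0.711) was 0.762, 0.660, 0.645 and 0.658 in the same order, and 0.715 with protein-coding genes only. These settings shift every log2 ratio by 0.10 (TPM), -0.11, -0.14 and -0.11. At 1.5-fold, 1 member and 409 tested genes were lower. In counts added after the data were seen, this became 0 members on TPM, 6 members and 775 genes without lens genes in the total, 7 and 707 with the authors' factors, and 6 and 705 centred. Those tested genes numbered 678 and 728 with pseudocounts of 0.1 and 0.01, 192 and 19 with FPKM filters of 5 and 100, and 213 with protein-coding genes only. The 114 tested genes at least 2-fold lower became 254 and 273 with pseudocounts of 0.1 and 0.01, 27 and 1 with FPKM filters of 5 and 100, 30 on CPM, 186 without lens genes in the total and 21 with protein-coding genes only. Single ratios ranged at most from 0.568 (Cryba2) to 0.850 (Crybb1). No member symbol repeats, so summing its rows changed nothing. No paired analysis was possible because each group is 1 library, and no library could be left out. Depth limits none of the member values, while Hspb2, Hspb3, Pitx3 and Foxe3 rest on far fewer reads than any member.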

Other observations

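Genes that carry a crystallin name but lie outside the alpha, beta and gamma lens families were mixed. Of 7 listed, 5 were found in the table under these symbols, 2 of them below 0 and 3 above, with a median difference of 0.13. These counts are near the shares of tested genes, 35.1% below 0 and 64.9% above. Crym, a thyroid hormone binding protein found in retinal glia, had 75.0 FPKM in OIR eyes and 26.3 in control eyes, a ratio of 2.86 (2.65 to 3.09). Crybg3, which encodes a protein with beta-gamma crystallin domains, had 7.00 FPKM in OIR eyes and 5.24 in control eyes, a ratio of 1.34 (1.13 to 1.58). Cryl1, the lambda crystallin gene of rabbit lens, had 2.82 FPKM in OIR eyes and 4.28 in control eyes, with a ratio of 0.659 (0.484 to 0.895) from 81 reads in OIR eyes and 95 in control eyes, within the range of the 8 crystallins.

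All alpha, beta and gamma crystallin genes together took 18.0% of the reads in OIR eyes and 23.8% in control eyes.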
